A study of Mus musculus with 2 samples.

Results

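The genes described here encode parts of laminin-332 and of the hemidesmosome, the structures that fix the bottom layer of the epidermis to its basement membrane. The 7 members, Lama3, Lamb3, Itga6, Itgb4, Itga3, Dst and Plec, were taken by symbol from the 27998 genes listed for 2 single-cell RNA libraries of mouse skin, and each symbol occurred once. One library came from untreated control skin and the other, here called the IMQ library, from skin after 5 days of daily topical imiquimod, a Toll-like receptor agonist used to provoke psoriasis-like inflammation. Both used wild-type C57BL/6 mice aged 2 months, described as female. The labels did not state how many animals each library held, no replicate library was present, and skin was dissociated with collagenase D and DNase, so every difference below is one between 2 libraries and carries no p-value.

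Laminin-332 is a secreted trimer of one alpha, one beta and one gamma chain that lies in the basement membrane under keratinocytes. The integrin pair alpha6-beta4 spans the basal cell membrane and binds it from above, and inside the cell the plakins plectin and dystonin tie that integrin to keratin filaments. Basal cells hold these contacts while they stay attached and lose them when they move upwards to differentiate, and loss of any of several of these proteins causes blistering of the skin.

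Expression was counted as unique molecular identifiers (UMIs, 1 per captured transcript), with 9877 control and 8386 IMQ cells left after filtering at medians of 9470 and 12544.5 UMIs. Only 23 barcodes were listed in both libraries. Cells were clustered, and clusters were named from marker genes. Keratinocyte-like cells numbered 1611 in the control and 2138 in the IMQ library. They were divided into basal (205 and 286 cells), cycling (79 and 297), follicle stem and outer root sheath (32 and 471), upper follicle (486 and 259) and suprabasal (447 and 243) classes, with the other cells sebaceous or unnamed. The basal class was made of subcluster 6, with 205 control and 2 IMQ cells, and subcluster 15, with 0 control and 284 IMQ cells. The suprabasal, upper follicle and cycling classes were likewise made of subclusters that came almost wholly from 1 library, so the library and the subcluster cannot be told apart. A level is the UMIs of a gene summed over a class, divided by all UMIs of that class and scaled to CPM, the usual depth-corrected unit of sequencing counts, with an exact Poisson 95% interval. Ratios have exact conditional binomial 95% intervals, and all intervals cover counting error only. Calls needed a ratio of 2-fold or more and an interval that excluded 1, and only genes with 20 or more UMIs in the 2 libraries together count as measured. Since 3' counting does not separate the isoforms of Lama3, Itga6, Dst or Plec, levels were not compared between genes.

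RefSeq promoter windows on GRCm38.p6 were given for 3 of the 7 members, and 4 of their 6 windows are shown because they differ in base composition. Each holds the 250 bases before a transcript start, printed 5' to 3' on the gene's strand, with GC boxes (GGGCGG, either strand) in capitals.
Lamb3 chr1:193301744-193301993, plus strand: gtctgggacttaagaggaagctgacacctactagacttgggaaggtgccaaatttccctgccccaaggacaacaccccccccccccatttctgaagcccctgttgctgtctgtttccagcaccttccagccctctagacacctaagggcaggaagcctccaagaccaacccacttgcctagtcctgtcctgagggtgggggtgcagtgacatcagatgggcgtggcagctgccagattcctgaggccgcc
Itga3 chr11:95076715-95076964, minus strand: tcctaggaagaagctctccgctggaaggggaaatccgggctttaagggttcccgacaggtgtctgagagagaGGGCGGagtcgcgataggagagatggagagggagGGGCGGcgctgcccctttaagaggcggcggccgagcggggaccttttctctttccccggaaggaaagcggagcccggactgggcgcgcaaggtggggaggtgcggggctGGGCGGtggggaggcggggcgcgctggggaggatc
Dst chr1:34011345-34011594, plus strand: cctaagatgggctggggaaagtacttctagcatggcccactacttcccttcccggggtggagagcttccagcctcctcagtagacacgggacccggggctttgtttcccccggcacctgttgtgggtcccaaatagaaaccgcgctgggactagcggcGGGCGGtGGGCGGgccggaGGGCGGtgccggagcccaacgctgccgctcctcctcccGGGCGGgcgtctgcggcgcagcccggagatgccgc
Dst chr1:34160010-34160259, plus strand: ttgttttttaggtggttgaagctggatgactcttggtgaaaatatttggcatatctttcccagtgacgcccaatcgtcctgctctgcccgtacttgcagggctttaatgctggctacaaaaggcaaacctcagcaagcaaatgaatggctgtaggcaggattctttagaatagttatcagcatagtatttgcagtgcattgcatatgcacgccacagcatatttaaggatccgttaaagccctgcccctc
The Itga3 window held 3 GC boxes and the upstream Dst window held 4, against none in the Lamb3 window or in the second Dst window. Over 32851 windows of this length, 32.7% held GGGCGG, 12.4% held TATAAA and 6.75% held the AP-1 motif TGANTCA on either strand. None of the 6 windows held TATAAA or TGANTCA. A match describes the letters only, and 3' counts do not show which start was used.

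Transcripts of 5 members lay mostly in keratinocyte-like cells, in shares that also depend on how many cells of each class were captured. In the control library these cells held between 84.6% (Lamb3) and 91.2% (Itga6 and Itga3) of the UMIs of Lama3, Lamb3, Itga6, Itgb4 and Itga3, while holding 31.5% of all UMIs. In the IMQ library the range was 86.2% (Itgb4) to 95.3% (Lama3), with 47.9% of all UMIs. Dst and Plec were spread more widely. Keratinocyte-like cells held 41.4% and 57.7% of Dst UMIs and 34.2% and 44.5% of Plec UMIs in the control and IMQ libraries, and fibroblast-like cells held 41.3% and 26.7% of Dst and 33.8% and 23.3% of Plec.

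**Figure D1:**
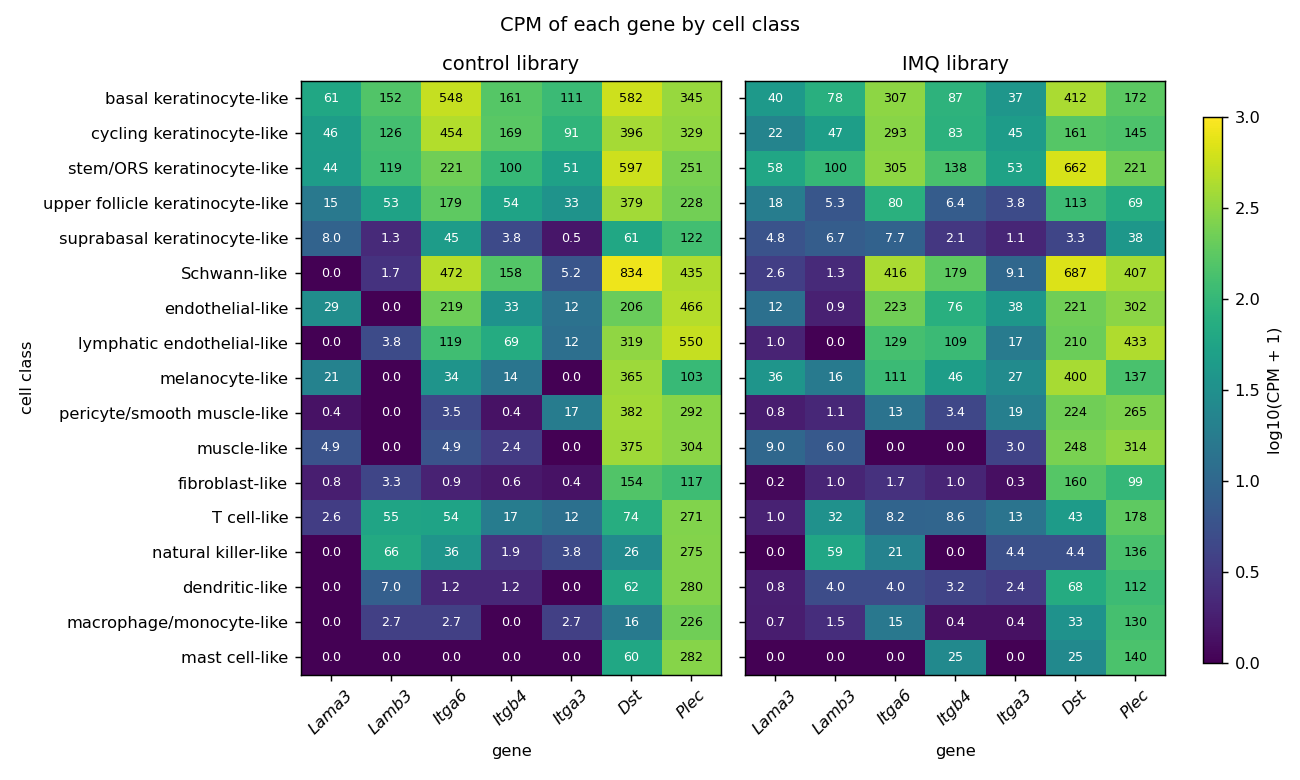
Level of each gene (columns, CPM, printed in each cell) in 17 cell classes (rows) of the control (left) and IMQ (right) library; colour is log10(level + 1). Lama3 and Lamb3 are high in basal, cycling and stem/ORS (follicle stem and outer root sheath) keratinocyte-like cells, whereas Schwann-like cells share high Itga6, Itgb4, Dst and Plec without them.

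Over all keratinocyte-like cells together, none of the 7 genes was called higher and none lower in the IMQ library, where 11.4% of 14174 measured genes were called higher and 11.6% lower. The log2 ratios ran from -0.62 for Plec to 0.32 for Lama3, with a median of -0.11 beside 0.02 over all measured genes. Lama3 was at 20.6 (19.2 to 22.2) CPM in the control and 25.8 (24.6 to 27.0) in the IMQ library, and Plec at 201 (196 to 205) and 131 (128 to 133). The makeup of the class differed between libraries, with 447 suprabasal and 32 follicle stem and outer root sheath cells in the control and 243 and 471 in the IMQ library.

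Within basal keratinocyte-like cells all 7 genes had a lower level in the IMQ library, and no interval of one library reached into that of the other. Of the 7, 2 were called lower, Itga3 and Plec, and none higher, while 10.2% of 10824 measured genes were called lower and 9.09% higher. The members' median log2 ratio was -0.89, beside -0.07 over all measured genes.

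Lama3 encodes the alpha3 chain of laminin-332 (chr18:12333819-12583013, plus strand, GENCODE M21 on GRCm38). Its basal level was 60.8 (53.3 to 69.1) CPM in the control library and 39.7 (35.7 to 44.1) in the IMQ library, 1.53-fold lower (1.29 to 1.81). Lamb3, for the beta3 chain (chr1:193207699-193343878, plus strand), was at 152 (140.4 to 165) and 77.5 (71.9 to 83.5), 1.97-fold lower (1.76 to 2.20). Both laminin chains were thus lower in the IMQ library, Lamb3 just short of the 2-fold line.

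The integrin subunits were also lower in IMQ basal cells. Itga6 (chr2:71745616-71858416, plus strand), the alpha6 subunit, was at 548 (525 to 572) CPM in the control and 307 (296 to 319) in the IMQ library, 1.79-fold lower (1.69 to 1.89). Itgb4 (chr11:115974709-116008412, plus strand), whose protein pairs only with alpha6, was at 161 (148 to 174) and 86.6 (80.6 to 92.9), 1.86-fold lower (1.67 to 2.07). Itga3 (chr11:95044474-95076801, minus strand) encodes the alpha3 subunit, which pairs with beta1 and binds laminin-332 outside hemidesmosomes. It fell from 111 (100.3 to 122) to 36.6 (32.7 to 40.8), 3.02-fold (2.61 to 3.50), the lowest ratio among the 7 in basal cells.

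Of the plakins, Dst (chr1:33908225-34308661, plus strand) encodes dystonin, whose epithelial form is the bullous pemphigoid antigen BP230. Its basal level was 582 (559 to 607) CPM in the control and 412 (399 to 426) in the IMQ library, 1.41-fold lower (1.34 to 1.49). Plec (chr15:76170974-76232574, minus strand), for plectin, was at 345 (327 to 364) and 172 (164 to 181), 2.00-fold lower (1.86 to 2.16), at the threshold itself. Its call was lost in 5 of 15 alternatives, at log2 ratios between -0.93 and -0.98: without the cell with most UMIs of the gene in each library, relative to the median gene, with coarser subclusters, with thinned cells and with cells chosen by keratin UMIs.

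**Figure D2:**
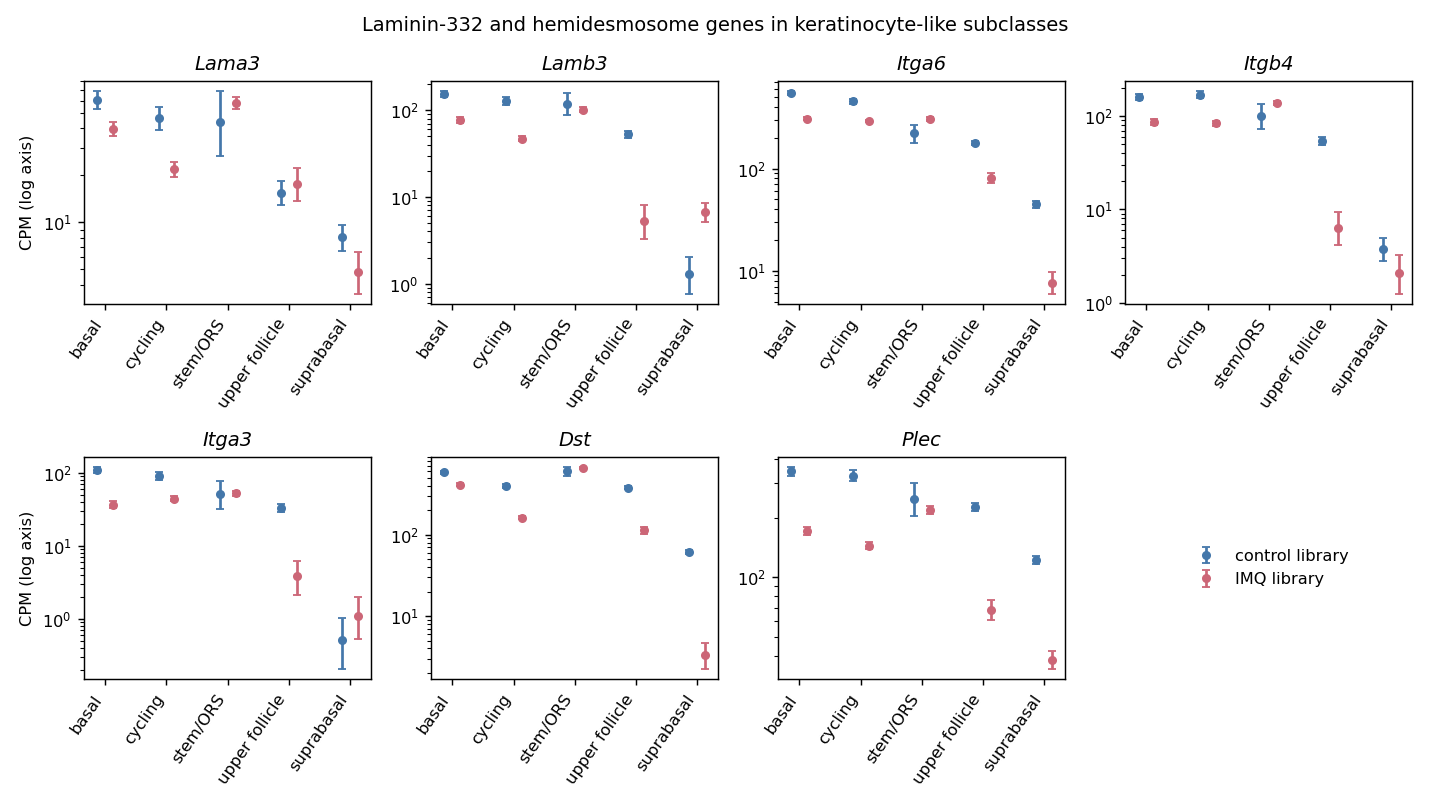
Level of each gene (y axis, CPM, log axis) in 5 keratinocyte-like subclasses (x axis) of the control (blue) and IMQ (red) library; bars are Poisson 95% intervals, which cover counting error only. In basal and cycling cells every IMQ point lies under its control point, while in stem/ORS cells (32 control cells) the points lie close together.

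Depth differed between the 2 sides of that comparison, with a median of 15130 UMIs per basal cell in the control and 25410 in the IMQ library. As a mean per cell, and not as CPM, Itga6 averaged 10.3 and 9.57 UMIs, Dst 10.98 and 12.8 and Lama3 1.15 and 1.24, so for Dst and Lama3 the order turned, while Itga3 kept it at 2.08 and 1.14. A lower share of a cell's transcripts and a larger total of other transcripts cannot be told apart in such counts. When each cell was thinned to 3000 UMIs (200 control and 284 IMQ cells, 5 and 2 shallower cells left out), Itga6 was detected in 79.5% (73.2 to 84.9, exact Clopper-Pearson interval) of control and 53.9% (47.9 to 59.8) of IMQ basal cells. Unthinned, the shares were 99.5% and 96.9%. Thinned Itga3 was seen in 30% (23.7 to 36.9) and 10.2% (6.95 to 14.3), and thinned Lama3 in 15% (10.4 to 20.7) and 12.3% (8.74 to 16.7), for which the intervals overlap. In macrophage/monocyte-like cells, taken as a reference class, the thinned shares were 0 of 54 control and 0 of 300 IMQ cells for Lama3 and 1.85% and 3.33% for Itga6, at median depths of 4333 and 4356 UMIs. Itga6 was not absent there, with a UMI in 30 of 518 IMQ cells before thinning.

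Detection of several members in the same cell was counted as well. After thinning, 20.5% (15.1 to 26.8) of control basal cells held a UMI of at least 5 of the 7 genes, against 2.82% (1.22 to 5.47) of IMQ basal cells, with medians of 3 and 2 members. In cycling cells the shares were 12.7% (6.24 to 22.0) and 2.03% (0.75 to 4.37). Follicle stem and outer root sheath cells had the other order, 3.23% (0.08 to 16.7) of 31 control and 8.32% (5.98 to 11.2) of 469 IMQ cells, with overlapping intervals. Upper follicle cells had 1.69% and 0%, and suprabasal cells 0% in both libraries. In fibroblast-like cells no cell of 5550 control and 3071 IMQ cells reached 5 members. Schwann-like cells had a median of 3 members in both libraries, with 1.59% and 0.97% of cells at 5 or more.

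Other genes measured in basal cells moved beside the members. The fibroblast marker list summed to 666 CPM in the control and 154 in the IMQ basal class, with none of 10 markers at 0 in either. The neutrophil list summed to 83.4 and 1860, where S100a8 and S100a9, which inflamed keratinocytes also express, are among its 10 markers. The red blood cell list summed to 24.6 and 417. The T cell list, which holds Thy1, summed to 104 and 5.95, with 5 of its 7 markers in the count files at 0 in each library. Dissociation stress genes, early genes that digestion can induce, had a median log2 ratio of -0.71 with 0 of 18 called higher and 3 called lower (Fosb, Atf3 and Nr4a1), beside 9.09% and 10.2% of all measured genes. The leading genes of the control subcluster 6 included Thy1 and Il1r2 beside Igfbp3, Sox6 and Bmp4, and those of the IMQ subcluster 15 included Il24, Nrg1 and Cxcl10. The part of each of these in the members' ratios was not tested. A choice of cells by at least 10 UMIs of Krt5 plus Krt14, keratins of basal cells, took 738 of 1611 control and 1733 of 2138 IMQ keratinocyte-like cells, with 91 and 124 cells near the limit. The 7 log2 ratios there ran from -0.29 for Lama3 to -1.02 for Itga3. This choice did not take like cells from both libraries, since IMQ subclusters high in Krt1 were also high in Krt14, with 6585 CPM of Krt14 beside 14066 of Krt1 in subcluster 18 and 14958 beside 6471 in subcluster 13.

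Cycling keratinocyte-like cells gave the same direction with too few control cells (79) for calls. Lamb3 was at 126 (114 to 140) CPM in the control and 47.1 (43.7 to 50.6) in the IMQ library, Dst at 396 (374 to 419) and 161 (155 to 168), and Itga6 at 454 (431 to 479) and 293 (285 to 302). The 7 log2 ratios ran from -0.63 for Itga6 to -1.42 for Lamb3, and none of the level intervals overlapped between libraries. In these cells the T cell list summed to 117 and 13.0 CPM, the fibroblast list to 504 and 172 and the neutrophil list to 39.3 and 5786, and their part in the ratios was not tested.

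Follicle stem and outer root sheath cells, the Krt5-positive cells of the lower hair follicle that also rest on a basement membrane, did not follow this order. With 32 control and 471 IMQ cells, the log2 ratios ran from -0.24 for Lamb3 to 0.47, and the ratio intervals included 1 for 5 of the 7 genes. Itga6 was at 221 (179 to 269.9) CPM in the control and 305 (293 to 316) in the IMQ library, and Itgb4 at 99.9 (72.3 to 135) and 138 (131 to 146). Within the IMQ library 6 of the 7 genes were higher in this class than in basal cells, by 1.28-fold for Plec to 1.61-fold for Dst, and Itga6 was level at 0.99 (0.94 to 1.05). In the control library 4 of the 7 were lower than in basal cells with an interval that excluded 1, Itga6 by 2.48-fold (2.02 to 3.08). The difference between these within-library ratios was not tested.

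**Figure D3:**
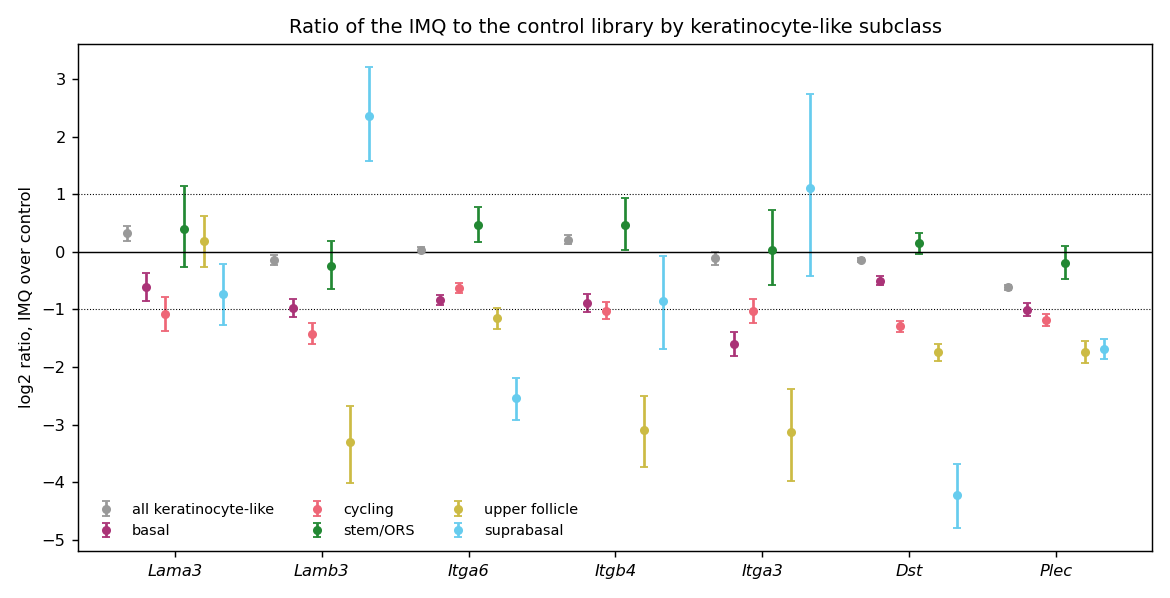
Log2 ratio of the IMQ over the control level (y axis) for each gene (x axis) in all keratinocyte-like cells and in 5 subclasses; bars are 95% intervals for counting error and dotted lines mark 2-fold. Basal and cycling points lie under 0 for all 7 genes, whereas suprabasal Lamb3 lies above the upper line at 2.36 and suprabasal Dst far under the lower one at -4.21. Those 2 points rest on 18 control UMIs of Lamb3 and 30 IMQ UMIs of Dst, a Dst level not shown to lie above free RNA.

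Every member was lower in suprabasal than in basal cells of both libraries. From basal to suprabasal cells, Itga3 went from 111 to 0.51 (0.20 to 1.04) CPM in the control and from 36.6 to 1.10 (0.53 to 2.02) in the IMQ library. These suprabasal levels rest on 7 and 10 UMIs beside free RNA estimates of 0.40 and 0.37 CPM for Itga3, so no fold is given. Dst fell 9.54-fold (8.82 to 10.3) in the control. In the IMQ library Dst went from 412 to 3.29 CPM. That suprabasal level rests on 30 UMIs. The free RNA estimate scales with the level of a gene over the library, 199 CPM for Dst against 16.1 for Itga3 in the IMQ library. The Dst level was therefore not shown to lie above free RNA, whose part in it was not tested, and no fold is given. Plec, for plectin, had the smallest step, 2.83-fold (2.63 to 3.04) and 4.53-fold (4.03 to 5.11). Itgb4 differed little between libraries in this respect, at 42.9-fold (32.3 to 58.0) and 41.6-fold (26.5 to 69.5). Its suprabasal levels of 3.75 and 2.08 CPM rest on 52 and 19 UMIs, and the part of free RNA in them was not tested.

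Lamb3 went the other way in suprabasal cells. It was at 1.30 (0.77 to 2.05) CPM in the control, from 18 UMIs, and at 6.68 (5.11 to 8.58) in the IMQ library, from 61 UMIs, 5.15-fold higher (3.001 to 9.25). The free RNA level estimated for Lamb3 in keratinocyte-like cells was 0.64 in the control and 0.51 in the IMQ library. Lama3 in the same cells was at 8.01 (6.59 to 9.64) and 4.82 (3.50 to 6.47), so the 2 chains moved apart. Of 6 measured members 1 was called higher and 3 lower (Itga6, Dst and Plec), beside 6.69% and 22.9% of 10805 measured genes. Itga6 was at 44.6 (41.1 to 48.2) and 7.67 (5.98 to 9.69), and Dst at 61.0 (57.0 to 65.3) and 3.29 (2.22 to 4.69). The last level came from 30 UMIs and was not shown to lie above free RNA. The control suprabasal cells came from subclusters 1 and 2, which differed among themselves at 123 and 8.45 CPM of Dst, and the IMQ cells from subcluster 18, led by Sprr2 genes of the cornified envelope. The neutrophil list, with S100a8 and S100a9, summed to 21.2 and 17323 CPM in these cells.

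In upper follicle cells 6 of the 7 genes were called lower in the IMQ library, beside 14.7% of 10840 measured genes, and none was called higher, beside 4.81%. Lamb3 was at 52.7 (47.8 to 58.0) and 5.35 (3.31 to 8.18) CPM, 9.86-fold lower (6.37 to 16.1), and Itgb4 at 54.1 (49.1 to 59.5) and 6.37 (4.12 to 9.40). Lama3 was the exception at 15.5 (12.9 to 18.4) and 17.6 (13.7 to 22.2). The libraries filled the class with different subclusters. Control subcluster 5 had 3509 CPM of Krt5 and 92.9 of Lamb3, while control subcluster 0 had 36.9 of Krt5 and 1.15 of Lamb3, and IMQ subcluster 14 had 959 of Krt5 and 4.95 of Lamb3. The spread of Lamb3 between the control subclusters was larger than that between libraries. In this class the fibroblast list summed to 617 and 136 CPM, the neutrophil list to 6.36 and 1788 and the red blood cell list to 23.6 and 243, and 18 of 23 cell cycle genes were called lower and none higher. Their part in the members' ratios was not tested.

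**Figure D4:**
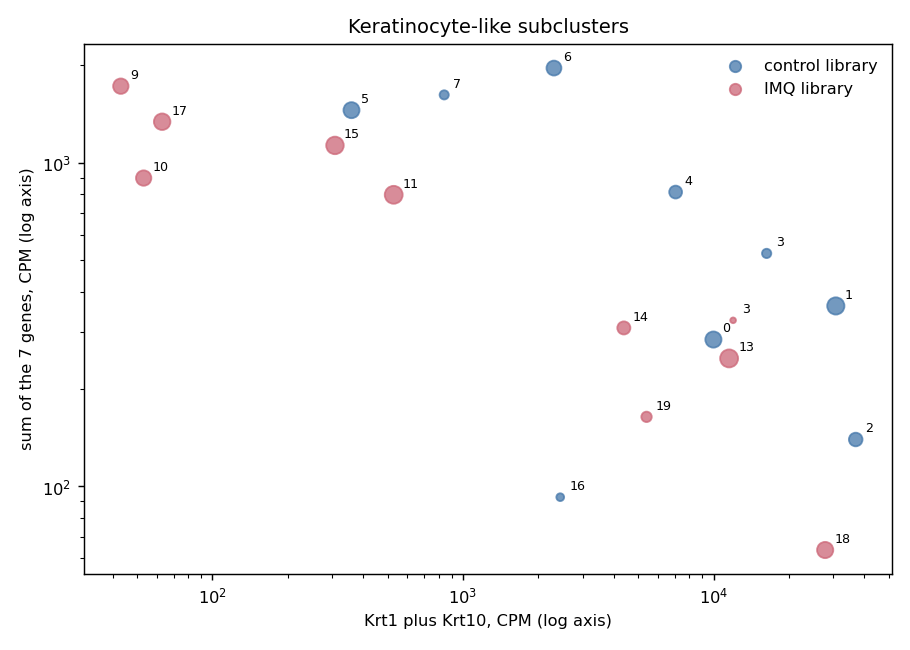
Sum of the 7 genes (y axis, CPM, log axis) against Krt1 plus Krt10 (x axis, CPM, log axis) for each keratinocyte-like subcluster with at least 30 cells of a library; numbers name the subcluster, colour the library and point area the number of cells. Sums are highest towards the left and in control subclusters 6 and 7, IMQ subcluster 18 has the lowest sum, and only subcluster 3 has a point for each library.

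The other hemidesmosome and anchoring genes did not all move with the members in basal cells. Over all 10824 genes measured there, 9.09% were called higher and 10.2% lower. Col17a1, the transmembrane collagen of the hemidesmosome, was called lower, at 1208 and 335 CPM in the control and IMQ libraries, 3.61-fold (3.44 to 3.78). Cd151, a tetraspanin that binds the laminin-binding integrins, was at 64.2 and 64.4, and Fermt1, which activates integrins, at 54.6 and 65.3, neither of them called. Of 18 measured basement membrane genes 3 were called higher, with Lama4 at 0.52 and 13.1 and Hspg2 (perlecan) at 7.25 and 18.7, and 5 lower, with Col4a6 at 31.8 and 6.84 and Sparc, also a fibroblast gene, at 231 and 54.3.

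Other adhesion lists were mixed in basal cells, beside 9.09% called higher and 10.2% lower over all measured genes. Of 12 measured integrins and tetraspanins 2 were called higher and 1 lower. Itgb8, a subunit that activates TGF-beta, had 0 UMIs in control and 283 UMIs in IMQ basal cells, at least 5.35 higher on the log2 scale against a floor of 3 counts over the class, and Itga2, a collagen-binding subunit, was at 16.8 and 4.71 CPM. Of 15 focal adhesion genes 2 were called higher, Actn1 (24.6 and 84.9) and Parva (12.2 and 35.6), and 1 lower, Bcar1 (29.5 and 13.0). Of 13 desmosome and other plakin genes none was called higher and 4 lower, with Evpl at 61.4 and 17.1 and Macf1, the plakin most like dystonin, at 107 and 106.

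The counts that follow also stand beside 9.09% called higher and 10.2% lower over all measured basal genes. Proteases that act on laminin-332 or anchoring collagens had 4 higher and 2 lower of 10 measured, with Plau, the urokinase activator, at 5.18 and 11.4 and Mmp3 at 27.7 and 2.13 CPM. Of 14 measured wound keratinocyte genes, such as the keratins Krt6a and Krt16, 11 were called higher and 1, Fosl1, lower. Of 10 measured differentiation genes 7 were called lower, Dsg1a from 242 to 10.1, and 1 higher. Of 22 cell cycle genes 9 were called higher and none lower, with Ube2c at 8.54 and 43.8. The wound, differentiation and cell cycle genes were not left out of the clustering, and some, such as Krt1 and Mki67, also named subclusters.

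Some cells outside the epidermis had Itga6, Itgb4 and the plakin members with few or no UMIs of the laminin chains. Itga3 had 3 control and 7 IMQ UMIs in Schwann-like cells, and stood at 11.5 and 16.7 CPM in lymphatic endothelial-like cells. In endothelial-like cells Itga3 was at 12.4 CPM from 3 UMIs and at 37.6 from 86 UMIs. Schwann-like cells, which rest on a basement membrane of their own, had Itga6 at 472 (417 to 532) and 416 (372 to 465), Itgb4 at 158 (128 to 195) and 179 (150.4 to 211) and Dst at 834 (761 to 912) and 687 (630.2 to 749) CPM in the control and IMQ libraries. They held at most 2 UMIs of Lama3 and 1 of Lamb3 in either library. None of the 4 measured members was called there, beside 4.05% higher and 2.2% lower of 7359 measured genes. Lymphatic endothelial-like cells (52 and 176) had Itga6 at 119 (91.5 to 153) and 129 (114 to 145) and Itgb4 at 69.3 (48.5 to 95.9) and 109 (95.0 to 124), and the Itgb4 ratio was 1.57 (1.10 to 2.30). Endothelial-like cells (39 and 126) had Itga6 at 219 (164 to 286) and 223 (204 to 243) and also Lama3, at 28.9 (11.6 to 59.5) from 7 UMIs and 11.8 (7.78 to 17.2) from 27 UMIs, while Lamb3 had 0 and 2 UMIs.

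Lamb3 was also found in lymphocytes, with few or no UMIs of Lama3. Natural killer-like cells had 65.9 (45.9 to 91.6) CPM of Lamb3 in the control and 58.9 (42.1 to 80.3) in the IMQ library, with a UMI in 29 of 133 and 30 of 116 cells. Lama3 had 0 UMIs there in both libraries, which limits the share of cells with a UMI to 2.74% of control and 3.13% of IMQ cells (exact upper limits) but does not limit the share that express it, and Itgb4 had 1 and 0. T cell-like cluster 16 had Lamb3 at 29.8 (19.4 to 43.6) and 24.6 (17.9 to 32.9), and cluster 30 at 129 (91.6 to 176) and 82.7 (51.2 to 127). Lama3 had 1 and 2 UMIs in cluster 16 and 2 and 0 UMIs in cluster 30. The control cells of cluster 30 also had Krt14 at 1971 and Krt5 at 875 CPM, against 98.5 and 43.3 in the IMQ library, and the part of keratinocyte RNA in their Lamb3 was not tested. Levels in macrophage/monocyte-like cells were 2.69 (0.07 to 14.96) and 1.47 (0.40 to 3.76). Thinned to 3000 UMIs, Lamb3 was seen in 12.9% and 16.5% of natural killer-like cells (median depths 3595 and 5132 UMIs), against 0 of 54 and 0.33% of 300 macrophage/monocyte-like cells (4333 and 4356 UMIs). Krt14, a marker of free keratinocyte RNA, was at 26.3 and 57.5 in the natural killer-like cells and at 16.1 and 87.0 in the macrophage/monocyte-like cells. It was at 32.1 and 51.4 in cluster 16, and its part in the Lamb3 levels was not tested.

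**Figure D5:**
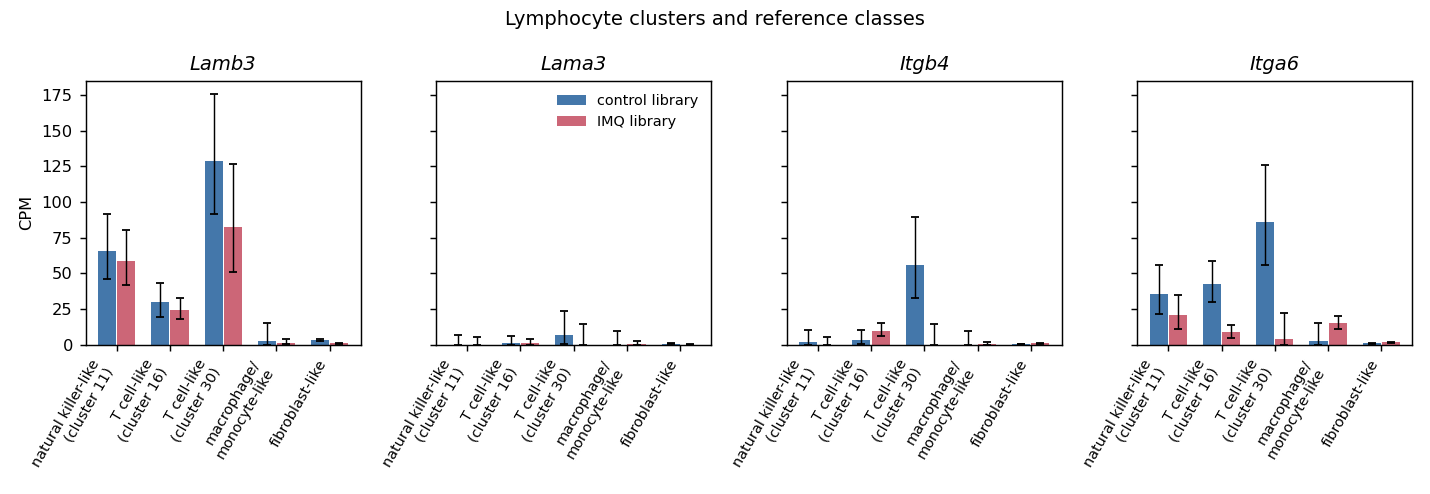
Level (y axis, CPM) of Lamb3, Lama3, Itgb4 and Itga6 in the natural killer-like cluster 11, T cell-like clusters 16 and 30 and 2 reference classes, in the control (blue) and IMQ (red) library; whiskers are Poisson 95% intervals. Lamb3 stands above the reference classes in all 3 lymphocyte clusters of both libraries, while Lama3 is at or near 0.

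Itga6 in T cell-like cells was called lower, from 53.6 (41.2 to 68.5) to 8.16 (4.75 to 13.1) CPM, beside 8.37% of 8635 measured genes, as the only one of 6 measured members, and none was called higher beside 8.93%. In the control cluster 30, its 26 UMIs lay in 7 cells and Krt14 stood at 1971 CPM, against 32.1 in the control cluster 16, where Itga6 was 42.4 (29.8 to 58.4) against 8.75 (5.00 to 14.2) in the IMQ library. Itga6 was called higher in pericyte/smooth muscle-like cells, from 9 UMIs (3.50 CPM) to 34 UMIs (12.9 CPM), the only one of 4 measured members and beside 8.61% of genes, with none lower beside 6.4%. The free RNA levels estimated there were 2.07 and 8.65 CPM, and this estimate was higher in the IMQ library too. In fibroblast-like cells Lama3 (0.78 and 0.17 CPM) and Lamb3 (3.28 and 1.04) were called lower, 2 of 7 measured, beside 4.88% of genes, with none higher beside 11.7%, and the free RNA estimates were 0.27 and 0.33 for Lama3 and 0.66 and 0.56 for Lamb3. Plec was called lower in dendritic-like cells (280.0 and 112), 1 of 2 measured beside 4.94% of genes, and in natural killer-like cells (275 and 136), 1 of 3 beside 7.44%, with none called higher beside 7.14% and 7.65%.

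Across 37 sums of a class in a library (of at least 30 cells), Pearson's r of log2(level + 10) described which genes were patterned like each member. The sums share libraries and depth, so r is a description with no test. Itga6 and Itgb4, whose proteins form one receptor, had the highest r of any pair of members at 0.91, and Lama3 and Plec the lowest at 0.12. Among 8260 other genes the nearest to Itgb4 were Ctnnal1 (0.93), Ptn (0.88) and Shroom2 (0.81), and those nearest to Itga6 were Ctnnal1 (0.83), Ptn (0.82) and Efnb1 (0.81). Lama3 was nearest to Fgfr3 (0.87), Vangl2 (0.86) and Fermt1 (0.86). Lamb3 was nearest to Tnfrsf18 (0.85), a receptor of lymphocytes, Gata3 (0.85), a factor of T cells and of epidermis, and Krtcap3 (0.84). Itga3 was nearest to Jag2 (0.85), Ajuba (0.85) and Dsg2 (0.84), Dst to Smo (0.87), Clstn1 (0.86) and Trip6 (0.85), and Plec to 4921524J17Rik (0.83), Zfp148 (0.83) and Ash1l (0.82).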

How the data were processed

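Single-cell RNA was measured in 1 control and 1 IMQ library of mouse skin, with a 3' kit per the labels' protocols. The authors deposited unnormalised UMI counts for every gene in every barcode. They were written by Cell Ranger 5.0.0 per the file headers, whereas Cell Ranger 3.0.2, Seurat 2.0 and mm10 are named per the submitters' processing notes; the annotation is not given in the sources used here. Every listed barcode had at least 500 UMIs, and the libraries held 123088680 and 144054978 UMIs over 10857 and 9414 barcodes.

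Cells with at least 200 genes and at most 10% mitochondrial UMIs were kept. Scrublet in scanpy 1.11.5 removed 420 control doublets (4.08%, 8.24% expected) and 113 IMQ doublets (1.33%, 6.80% expected), so some may remain. Both libraries were clustered together without integration (2000 variable genes, 30 principal components, 15 neighbours, Leiden resolution 1), and keratinocyte-like cells were clustered again. The members and the other hemidesmosome and basement membrane genes, except Krt5 and Krt14, were left out of the variable genes. Genes of the remaining lists were not left out, and some differentiation, wound and cell cycle genes also served as markers that named subclusters. A class or subcluster was named from at least 3 markers in at least 10% of its cells at 2-fold (subclusters 1.5-fold) the level elsewhere, unless its 10 leading genes favoured another type; this naming rule was set with the clusters in view. Haemoglobin, mitochondrial and ribosomal genes were left out of the leading genes. UMIs were summed per class and library; classes needed 30 cells for a level and 100 per library for calls. Free RNA was estimated from marker genes of other classes. With 1 library per group no test was run. The calls were also run on simulated Poisson counts with known folds. Those counts hold no spread between cells or animals, so the run cannot show how the calls fare against that spread. The members and gene lists were chosen with earlier results of these data known. Of each other list, at most the 2 highest and 2 lowest ratios among genes with at least 100 UMIs in basal cells are named, and the 3 genes nearest each member; further names were chosen after their values were seen. Alternatives covered scaling, doublets, clustering, filters, free RNA, depth, weighting and thresholds. One listed gene, and the count of its list, are not reported here.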

Additional observations from a re-analysis of the deposited data

Results flagged for a closer look

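The ratio of 2 members was past 2-fold in opposite directions in different cell classes. Lamb3 had a log2 ratio (IMQ over control) of 2.36 in suprabasal keratinocyte-like cells, against -1.65 in fibroblast-like cells and -3.30 in upper follicle keratinocyte-like cells. Itga6 had a log2 ratio of 1.88 in pericyte/smooth muscle-like cells, against -2.71 in T cell-like cells, -2.54 in suprabasal and -1.16 in upper follicle keratinocyte-like cells. The pericyte/smooth muscle-like ratio rests on 9 and 34 UMIs, with a free RNA estimate that was also higher in the IMQ library. Fibroblast-like Lamb3 stood at only 3.28 and 1.04 CPM. Control T cell-like cells include cluster 30, with Krt14 at 1971 CPM, but Itga6 was also lower in IMQ cells of cluster 16. The part of free RNA in these ratios was not tested. With 1 library per group these differences between classes were not tested.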

How the results depend on the processing

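No paired analysis was possible because each group had 1 library. In basal keratinocyte-like cells 2 of the 7 genes were called lower; the number was 1 relative to the median of all measured genes, 1 with subclusters at resolution 0.5, 1 without the cell with most UMIs of the gene in each library and 6 at 1.5-fold, and between 2 and 3 in the other alternatives. Each of the 7 basal ratios kept its sign in all 15 alternatives, of which the sum of basal and cycling subclusters was chosen after seeing the data. Mean UMIs per cell, for which the order of Dst and Lama3 turned, was not among these alternatives. Over all keratinocyte-like cells 0 genes were called lower, and 1 at 1.5-fold. There, keeping doublets, which left 1750 control and 1685 IMQ cells in the class, turned the log2 ratios of Lamb3 to 0.24, Itga3 to 0.29 and Dst to 0.28, thinning turned Lamb3 to 0.19 and Itga6 to -0.02, and the mean over cells turned Itga6 to -0.04; the cause was not tested. Leaving out subclusters 3 and 8, led by fibroblast and Langerhans cell genes and chosen after seeing the data, gave 0 calls. No calls were made for the follicle stem and outer root sheath class, which had 32 control cells, so alternatives for it were not run. Levels of a few CPM rest on few molecules, and intervals do not hold the spread between animals.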
